A study of Homo sapiens with 12 samples.

Results

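Interferon-stimulated genes were followed across 4 groups of SNU449 cells, a human liver cancer line with a mesenchymal-like phenotype. The set is a list of 44 gene names, known for their induction by interferon. The set is defined by names, but the names were chosen with earlier results of these data known. Shares of members called are therefore not those of a list chosen without sight of the data. Of these, 39 are listed among the 15601 genes of the tables over all libraries and were tested. IFI6, IFITM1, MX2, DHX58 and CMPK2 are not listed there, and no value is given for them. For 30 of the 39 listed genes the mean normalized count of the authors was at least 10. It was under 10 for RSAD2, SAMD9L, XAF1, IFI27, OAS2, USP18, HERC6, OASL and MX1.

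RNA was sequenced from the 3′ ends of transcripts in 12 libraries, 3 for each group. SNU449 control cells carry wild-type Axl, a receptor tyrosine kinase, and were naive to regorafenib (Rego), a kinase inhibitor used in liver cancer. Rego-resistant SNU449 cells were kept in the drug over the long term at rising doses, up to 2 times the IC50. SNU449-Axl- control cells are naive cells with a knockout of Axl, and Rego-resistant SNU449-Axl- cells carry the knockout and went through the same long-term treatment. The 3 libraries of a group are technical replicates of 1 cell population, so p-values measure the spread between such libraries, and an effect of Rego or Axl cannot be told apart from a difference between populations.

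Type I interferons bind IFNAR1 and IFNAR2 and act through the kinases JAK1 and TYK2 on transcription factors that bind the interferon-stimulated response element (ISRE) of target promoters. Interferon gamma acts through the gamma-activated site (GAS), and IRF1 binds ISRE-like sequences. The products sense viral nucleic acids, degrade RNA, tether or trap viruses, attach the ubiquitin-like ISG15 to proteins and present antigen, and many tumor cell lines express them without added interferon.

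The ISRE core (GAAA, any 2 bases, GAAA) was searched on both strands in the 250 bases before the transcription start of each gene in the RefSeq promoter table (GRCh38.p14), since it is the sequence by which these genes are known. It was found in 20 of the 34 members in that table, or 58.8%, and in 1061 of all 35116 promoters, or 3.02%. The GAS core (TTC, any 3 bases, GAA) was found in 9 of the 34 members, or 26.5%, beside 6.57% of all promoters. The members whose expression differed in at least 1 comparison held an ISRE match in 7 of 12 promoters and the tested members without a difference in 11 of 19, or 58.3% and 57.9%. For GAS these were 2 of 12 and 6 of 19, or 16.7% and 31.6%. GBP2, TRIM22, IFITM2, IFIT2, IRF7, OAS2, OASL, USP18, MX2 and DHX58 were not matched. The following windows show where the core lies in the 7 called members with an ISRE match, at the match nearest to the start, and in IRF1, which held a GAS match and no ISRE match. They are read on the strand of the gene, with the match in capitals (TTTC, any 2 bases, TTTC is the ISRE core on the opposite strand). ISRE and GAS matches can overlap, as can neighbouring matches of 1 motif. Starts are those of RefSeq, and the gene intervals of the deposited tables can begin further upstream.
IFIH1, chr2:162318685-162318717, minus strand: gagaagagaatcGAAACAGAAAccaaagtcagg
IFIT3, chr10:89327863-89327896, plus strand: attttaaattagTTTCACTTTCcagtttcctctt
GBP1, chr1:89065314-89065347, minus strand: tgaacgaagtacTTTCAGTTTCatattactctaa
BST2, chr19:17405733-17405766, minus strand: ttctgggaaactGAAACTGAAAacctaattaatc
HERC5, chr4:88457033-88457066, plus strand: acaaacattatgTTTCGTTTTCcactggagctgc
IFI44, chr1:78649759-78649788, plus strand: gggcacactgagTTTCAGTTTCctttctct
IFI44L, chr1:78620363-78620396, plus strand: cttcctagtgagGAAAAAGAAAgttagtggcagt
IRF1 (GAS), chr5:132490877-132490909, minus strand: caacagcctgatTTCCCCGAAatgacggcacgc
The IFI44L window occurs with identical letters also at chr1:78620272-78620305. The matches of IFI44 and IFIH1 lie 9 and 12 bases before the start, and those of the other 5 ISRE windows between 64 and 118 bases before it.

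Library values are whole numbers that follow the variance-stabilised, batch-corrected expression level, and fold changes are differences of log2(value + 1). This scale compresses low levels, since 1 unit of log2 mean count corresponded to 0.97 units at 512 to 4096 counts, 0.85 at 64 to 512, 0.44 at 8 to 64 and 0.17 at 1 to 8. AXL itself was at 715 to 941 in SNU449 control and 815 to 1271 in Rego-resistant SNU449, and at 33 to 53 and 38 to 52 in the corresponding SNU449-Axl- cells. Of the hepatocyte markers only APOA1 and AFP of 8 are listed, with mean normalized counts of 1.14 and 4.26, whereas all 6 mesenchymal-like markers are listed. Of 6 leukocyte markers 3 are listed, with mean normalized counts of 1.12 to 6.19, and neither of 2 markers of plasmacytoid dendritic cells, which release much type I interferon, is listed. Libraries with replicate number 2 deviated from their group mean for most members. In SNU449 control 8 of 39 and in SNU449-Axl- control 6 of 39 were above it, and in the Rego-resistant cells 33 and 31 of 39. In SNU449-Axl- cells libraries with number 3 deviated the other way to a similar extent. There 30 of 39 members were above the mean in control and 7 of 39 in Rego-resistant cells. These patterns are not separate observations. Deviations cancel over the 3 libraries of a group by definition. They also nearly cancel over the 4 libraries of 1 number, as a removed effect along that number would leave them. Low control libraries thus go with high Rego-resistant ones of the same number. Because of these deviations, each comparison is also given within replicate numbers and without the 4 libraries of each number in turn.

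**Figure D1:**
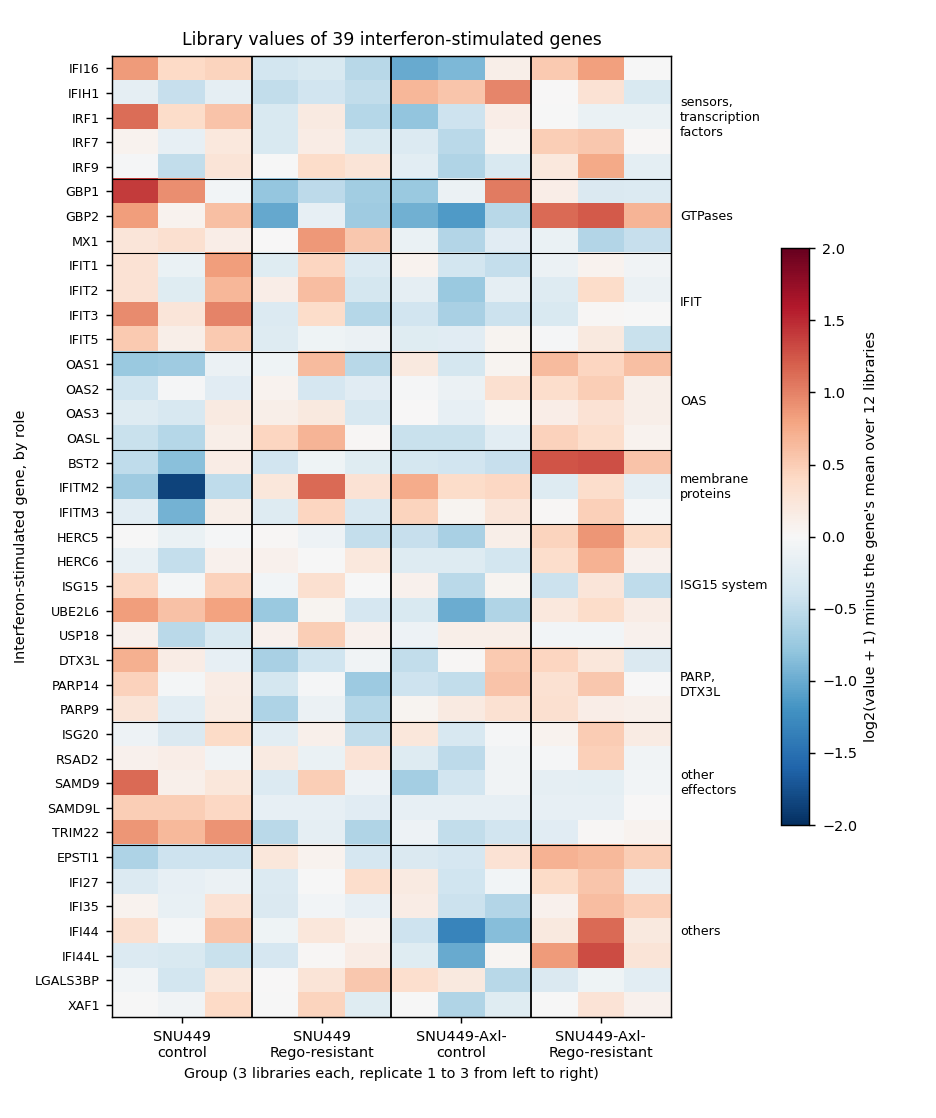
Levels of the 39 listed interferon-stimulated genes (rows, by role) in 12 libraries (columns, 3 per group, replicate 1 to 3 from left to right), as log2(value + 1) minus the mean of the gene over all libraries; red is higher, blue lower. The group mean was highest in Rego-resistant SNU449-Axl- cells for 19 genes and in SNU449 control cells for 13.

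Of the 39 genes, 19 had their highest group mean in Rego-resistant SNU449-Axl- cells, 13 in SNU449 control, 5 in Rego-resistant SNU449 and 2 in SNU449-Axl- control. The lowest group mean was in SNU449-Axl- control cells for 19 genes, in Rego-resistant SNU449 for 9, in SNU449 control for 8 and in Rego-resistant SNU449-Axl- for 3. The members were thus ordered differently from gene to gene, and 24 of them passed the test in no comparison. The other 15 passed in at least 1 of the 4 comparisons between groups, 11 of them in at least 2 and GBP2 in all 4. Each group enters 2 of the comparisons, so calls in several are not separate support. Rego in SNU449 and loss of Axl in control cells share the 3 SNU449 control libraries. In bulk RNA, fewer cells that express a gene and less of its RNA per cell cannot be told apart. The values of these genes are given by role, with libraries in the order of replicate 1, 2 and 3, and coordinates on GRCh38 as in the deposited tables.

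Among the GTPases, GBP2 (ENSG00000162645.13, chr1:89106132-89150456, minus strand) and GBP1 (ENSG00000117228.11, chr1:89051882-89065360, minus strand) encode guanylate-binding proteins, which act on intracellular pathogens and respond strongly to interferon gamma. GBP2 was at 504, 296 and 430 in SNU449 control, 139, 251 and 172 in Rego-resistant SNU449, 145, 129 and 191 in SNU449-Axl- control and 624, 664 and 451 in Rego-resistant SNU449-Axl-. SNU449 control and Rego-resistant SNU449-Axl- cells were the high groups, and none of their libraries overlapped with those of the other 2 groups. GBP1 was at 772, 562 and 282 in SNU449 control, 171, 205 and 181 in Rego-resistant SNU449, 175, 270 and 602 in SNU449-Axl- control and 321, 239 and 242 in Rego-resistant SNU449-Axl-. Rego-resistant SNU449 did not overlap with SNU449 control, whereas the 2 SNU449-Axl- groups did overlap, and replicates spread most in the 2 control groups. MX1 (ENSG00000157601.15, chr21:41420020-41470071, plus strand), a dynamin-like GTPase that blocks viral replication, was at 38, 40 and 35, 32, 59 and 47, 29, 21 and 27, and 29, 21 and 23 in the same order of groups. It was lower in all 6 SNU449-Axl- libraries than in all 6 SNU449 libraries, at a mean normalized count of 8.32.

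Of the sensors, IFI16 (ENSG00000163565.20, chr1:158999968-159055155, plus strand) recognises DNA in the nucleus. Its values were 817, 595 and 618 in SNU449 control, 351, 367 and 307 in Rego-resistant SNU449, 224, 242 and 492 in SNU449-Axl- control and 654, 798 and 451 in Rego-resistant SNU449-Axl-. The SNU449 groups were separate, whereas the 2 SNU449-Axl- groups overlapped through replicate 3 of each. IFIH1 (ENSG00000115267.9, chr2:162267074-162318684, minus strand), the cytosolic sensor of long double-stranded RNA also known as MDA5, was at 131, 108 and 131, 106, 114 and 106, 236, 220 and 295, and 150, 182 and 121 in the same order. SNU449-Axl- control cells were above all other libraries. IRF1 (ENSG00000125347.15, chr5:132440440-132508719, minus strand), a transcription factor of the interferon gamma response, was at 759, 451 and 521 in SNU449 control, 282, 395 and 235 in Rego-resistant SNU449, 202, 263 and 385 in SNU449-Axl- control and 347, 320 and 318 in Rego-resistant SNU449-Axl-. All 3 libraries of SNU449 control lay above the other 9.

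IFIT3 (ENSG00000119917.15, chr10:89327307-89377473, plus strand) belongs to a family of proteins that bind viral RNA and partners with IFIT1. It was at 470, 288 and 486 in SNU449 control, 201, 315 and 164 in Rego-resistant SNU449, 187, 155 and 181 in SNU449-Axl- control and 197, 247 and 241 in Rego-resistant SNU449-Axl-. SNU449 control and Rego-resistant SNU449 overlapped in replicate 2, while the 2 SNU449-Axl- groups were both below SNU449 control. Of the membrane proteins, BST2 (ENSG00000130303.14, chr19:17402939-17405630, minus strand), or tetherin, holds budding virus at the cell surface. It was at 34, 27 and 54, 37, 46 and 41, and 38, 37 and 35 in the first 3 groups and at 118, 121 and 73 in Rego-resistant SNU449-Axl-, which was above all other libraries. IFITM2 (ENSG00000185201.18, chr11:303655-309397, plus strand) restricts the entry of viruses from endosomes, and was at 280, 126 and 322 in SNU449 control, 537, 1011 and 559 in Rego-resistant SNU449, 765, 590 and 608 in SNU449-Axl- control and 383, 586 and 403 in Rego-resistant SNU449-Axl-. SNU449 control was below all other libraries. Reads shared by IFITM2 and the near-identical IFITM3, its neighbour, may have been assigned to either or lost, so the level of IFITM2 is uncertain, and the same holds to a lesser extent for the other paralogs in the list.

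UBE2L6 (ENSG00000156587.16, chr11:57551656-57568284, minus strand) encodes the conjugating enzyme that passes ISG15 to its substrates. It was at 460, 384 and 448 in SNU449 control, 152, 265 and 202 in Rego-resistant SNU449, 207, 128 and 168 in SNU449-Axl- control and 296, 330 and 283 in Rego-resistant SNU449-Axl-. SNU449 control was above the other groups, and Rego-resistant SNU449-Axl- cells were above the remaining 2. TRIM22 (ENSG00000132274.16, chr11:5689697-5737089, plus strand), an antiviral protein of the TRIM family of ubiquitin ligases, was at 66, 56 and 67, 24, 31 and 23, 33, 25 and 27, and 30, 36 and 37 in the same order. SAMD9L (ENSG00000177409.12, chr7:93130056-93148385, minus strand), an inhibitor of cell growth and viral replication, was at 37, 37 and 35, 23, 23 and 22, 23, 23 and 23, and 23, 23 and 26, with a mean normalized count of 2.92. Both were higher in each SNU449 control library than in any other. IFI44 (ENSG00000137965.11, chr1:78649796-78664078, plus strand) was at 64, 50 and 76, 48, 60 and 54, 38, 20 and 28, and 59, 113 and 59. Its SNU449-Axl- control libraries were below the other 9. HERC5 and IFI44L, each called once, are added after their values were seen. HERC5 (ENSG00000138646.9, chr4:88457119-88506163, plus strand) was at 85, 78 and 84, 87, 80 and 61, 62, 54 and 93, and 117, 159 and 112 in the same order, and IFI44L (ENSG00000137959.17, chr1:78619902-78646145, plus strand) was at 44, 43 and 39, 42, 54 and 59, 45, 26 and 55, and 97, 134 and 64. For both, all libraries of Rego-resistant SNU449-Axl- cells were above the other 9.

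**Figure D2:**
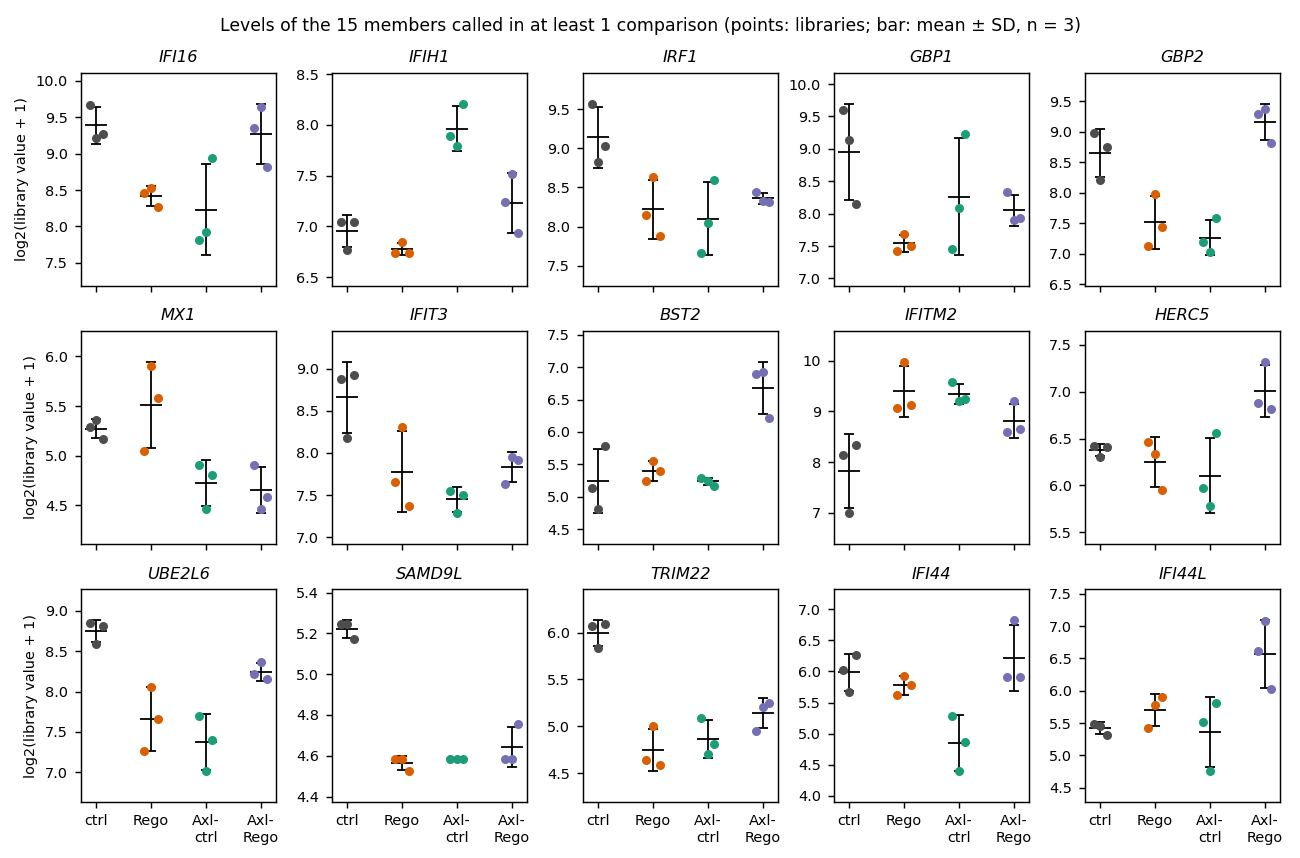
Levels of the 15 interferon-stimulated genes called in at least 1 comparison, as log2(library value + 1) on axes that differ by gene and do not start at 0; points are libraries, bars the mean ± SD of 3 libraries (ctrl, SNU449 control; Rego, Rego-resistant SNU449; Axl-ctrl and Axl-Rego, the same for SNU449-Axl-). BST2 stood above all other libraries in Rego-resistant SNU449-Axl- cells, IFITM2 was lowest in SNU449 control, and GBP2 was high in SNU449 control and Rego-resistant SNU449-Axl- cells.

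Because the scale compresses low levels, mean normalized counts per group were also solved from the pair-wise means of the authors, which gives no error. In the order SNU449 control, Rego-resistant SNU449, SNU449-Axl- control and Rego-resistant SNU449-Axl-, they were 398, 143, 170 and 629 for GBP2 and 414, 161, 164 and 324 for UBE2L6. For BST2 they were 11.6, 11.7, 11.9 and 86.6, and for TRIM22 35.2, 0.399, 3.12 and 8.94. On the count scale, BST2 therefore differed far more between groups than its library values show. TRIM22 was highest in SNU449 control there too, but its solved means missed the means of the authors by up to 4.57% of their average. The value of 0.399 is therefore not determined to that precision, and no fold change is drawn from it. EPSTI1, named here after its values were seen, passed in no comparison, yet its solved means were 3.68, 13.3, 12.1 and 40.3. Its library values ranged from 27 to 31, 33 to 49, 33 to 51 and 59 to 68 in the same order.

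The first comparison set Rego-resistant cells against control cells, both with Axl. In Rego-resistant SNU449 compared to control, IFIT3, IFI16, IRF1, SAMD9L, GBP1, GBP2, TRIM22 and UBE2L6 fell and IFITM2 rose. These were 9 of 39 members, or 23.1%, beside 7.81% of all 15601 genes (adjusted p under 0.05, limma, Benjamini-Hochberg). The 8 falls stood beside 3.50% of all genes that fell and the 1 rise beside 4.31% that rose. Of the 30 members with a mean normalized count of at least 10, 8 were called, beside 9.21% of all genes at that level. GBP1 had a log2 fold change of -1.42 ± 0.365 (SE, adjusted p = 0.0212) and TRIM22, whose low level compresses its fold change, one of -1.25 ± 0.192 (adjusted p = 0.00042). GBP2 fell by 1.13 ± 0.256 (adjusted p = 0.00912) and UBE2L6 by 1.09 ± 0.225 (adjusted p = 0.00493) on the log2 scale. The falls of IFI16 (-0.97), IRF1 (-0.92), IFIT3 (-0.88) and SAMD9L (-0.66) were smaller. IFITM2 rose by 1.58 ± 0.311 (adjusted p = 0.00349).

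By role, both guanylate-binding proteins fell, 2 of 5 sensors and transcription factors fell, and none of the 4 OAS genes passed the test. The median log2 fold change of the members was -0.18, with 16 above and 23 below 0, beside -0.000 over all genes. Libraries did not overlap between groups for 8 members that were lower and 2 that were higher, beside 13.3% and 14.6% of all genes. Within replicate numbers 1, 2 and 3 the median difference of the members was -0.24, 0.30 and -0.46, so the direction of the whole list was not the same in replicate 2. Of the 8 members that fell, 7 were lower within each number, and IFIT3 was 0.13 higher within number 2.

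Without the 4 libraries numbered 2, IFIT3, GBP2, TRIM22 and UBE2L6 remained called, beside 2.21% of all genes, and the median of the members was -0.41. Without those numbered 1, IFITM2 and TRIM22 were called, beside 3.62% of all genes, with a median of -0.11. Without those numbered 3, 8 members were called, 5 lower and 3 higher, beside 5.38% of all genes, and the median was 0.02, so that the lower level of the list as a whole rested on the choice of libraries. TRIM22 was called under each of the 3 omissions and GBP2 only without number 2. Leaving out 1 library gave 3, 6 and 7 called members without SNU449 control replicate 1, 2 and 3, and 3, 7 and 5 without Rego-resistant SNU449 replicate 1, 2 and 3. IFITM2 and TRIM22 passed under each of these, and the other 7 calls were lost at least once, with highest adjusted p-values between 0.0517 (UBE2L6) and 0.224 (IFIT3). Over all 15601 genes, 968, 740 and 924 were called in the first 3 of these fits and 875, 780 and 741 in the others, instead of 1219.

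The same comparison was made in SNU449-Axl- cells, which lack Axl. GBP2, BST2, IFI44, IFI44L, IFI16, HERC5 and UBE2L6 rose in Rego-resistant SNU449-Axl- cells and IFIH1 fell. These were 8 of 39 members, or 20.5%, beside 4.35% of all genes, with 2.54% of all genes higher and 1.81% lower. All 8 were among the 30 members with a mean normalized count of at least 10, a level at which 5.22% of genes were called. GBP2 rose by 1.90 ± 0.256 on the log2 scale of library values (adjusted p = 0.000247), and BST2 by 1.44 ± 0.247 (adjusted p = 0.00223). IFI44 rose by 1.37 ± 0.271 (adjusted p = 0.00642). On the solved mean counts, which have no error, BST2 went from 11.9 to 86.6 and IFI44 from 6.1 to 55.9, a steeper change than that of GBP2 from 170 to 629. On the log2 scale IFI16 rose by 1.04 ± 0.273 (adjusted p = 0.0362) and UBE2L6 by 0.87 ± 0.225 (adjusted p = 0.0342). IFI44L, the neighbour of IFI44, rose by 1.21 ± 0.277 (adjusted p = 0.017), and HERC5, the ligase that attaches ISG15, by 0.90 ± 0.229 (adjusted p = 0.0314). IFIH1 fell by 0.73 ± 0.202 (adjusted p = 0.0462).

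The median of the members was 0.35, with 31 above and 8 below 0, beside 0.007 over all genes. Libraries did not overlap for 13 members that were higher and 2 that were lower, beside 15.0% and 14.1% of all genes. Relative to the spike-in RNAs the median of all genes shifted by 0.138, 84.2% of the called genes were higher instead of 58.4%, and the members called were 10 higher and 0 lower, so that IFIH1 was no longer called (adjusted p = 0.108).

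The median difference within replicate numbers 1, 2 and 3 was 0.27, 0.77 and 0.09, highest within number 2. Each call had the same sign within every number with the exception of IFI16, which was 0.13 lower within number 3 (-0.13). Without the 4 libraries numbered 2, GBP2 alone was called, beside 0.583% of all genes, 10 of 39 members had an unadjusted p under 0.05, and the median was 0.12. Without number 1, GBP2 and IFI44 were called, beside 1.31% of all genes (median 0.47), and without number 3, 10 members, all higher and GBP2 and BST2 among them, beside 3.71% (median 0.50). Leaving out 1 library gave 6, 2 and 8 called members without SNU449-Axl- control replicate 1, 2 and 3, and 3, 2 and 6 without Rego-resistant SNU449-Axl- replicate 1, 2 and 3. GBP2 and BST2 passed under each of these, and the other 6 calls were lost at least once, with highest adjusted p-values between 0.0848 (IFI44) and 0.263 (IFI16). Over all 15601 genes, 519, 243 and 479 were called in the first 3 of these fits and 307, 205 and 363 in the others, instead of 678.

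**Figure D3:**
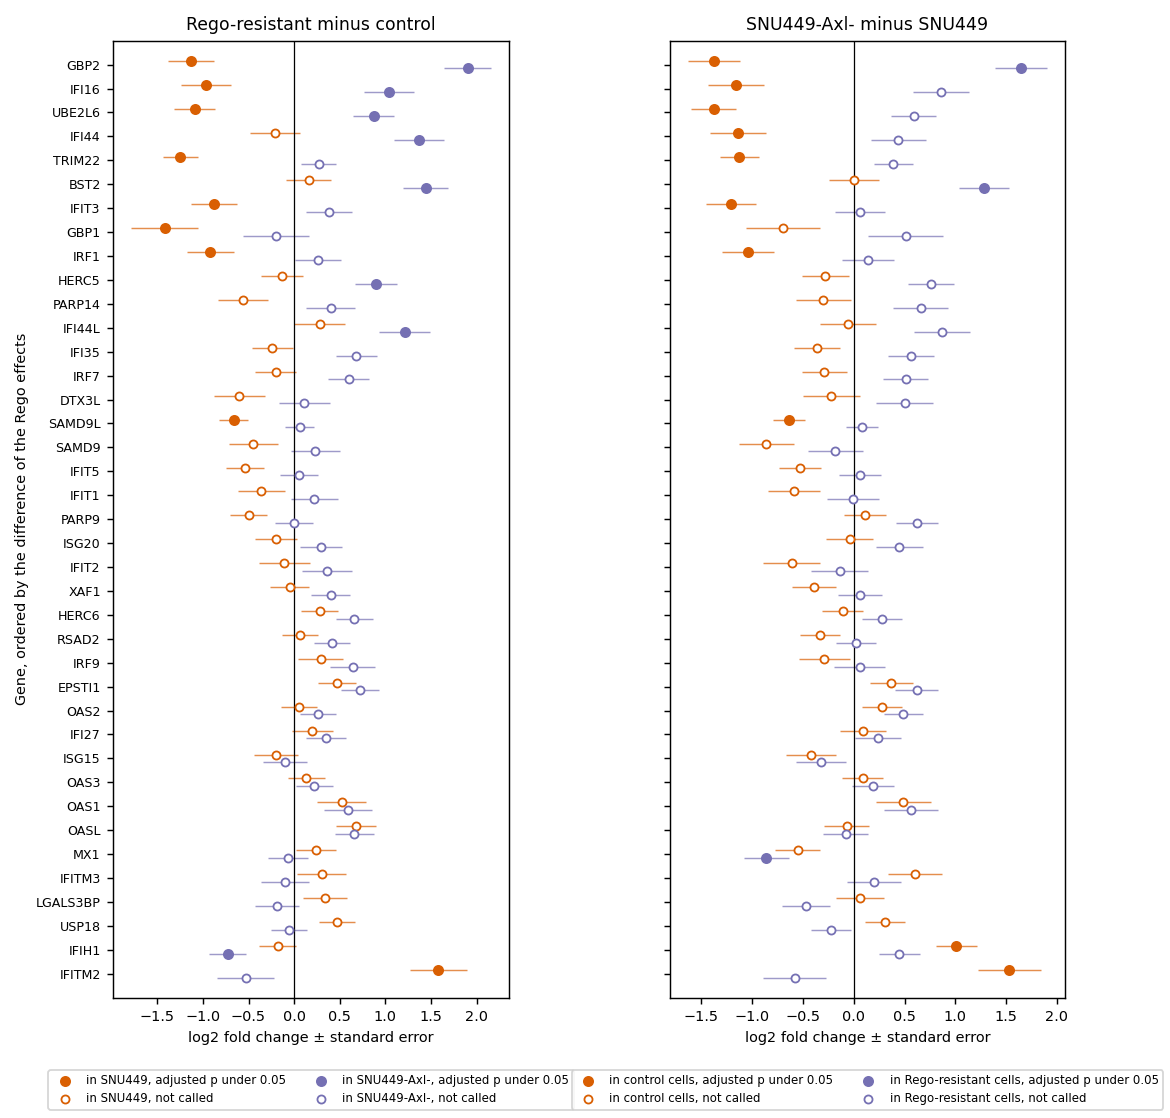
Log2 fold changes ± standard error of the 39 genes, ordered by the difference of the Rego effects between the backgrounds, for Rego resistance (left) and loss of Axl (right). Filled points passed the test at an adjusted p under 0.05. GBP2, IFI16 and UBE2L6 fell upon Rego in SNU449 and rose in SNU449-Axl-, and IFITM2 rose in SNU449, with -0.53 in SNU449-Axl- that did not pass the test.

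A difference of the Rego effect between SNU449-Axl- and SNU449 cells was tested with an interaction term, the effect in SNU449-Axl- minus that in SNU449. It was positive for GBP2, IFI16, UBE2L6, IFI44, TRIM22, BST2 and IFIT3 and negative for IFITM2. These were 8 of 39 members, or 20.5%, beside 5.87% of all genes, with 2.92% of all genes positive and 2.95% negative. All 8 were among the 30 members with a mean normalized count of at least 10, a level at which 7.14% of genes were called. On the log2 scale of library values, which compresses the differences of low genes such as TRIM22, IFI44 and BST2, it was 3.03 ± 0.362 for GBP2 (adjusted p = 6.39e-05), followed by IFI16 with 2.02 ± 0.386 (adjusted p = 0.00405) and UBE2L6 with 1.96 ± 0.319 (adjusted p = 0.00114). These 3 genes fell in SNU449 and rose in SNU449-Axl-. TRIM22 (1.52 ± 0.272, adjusted p = 0.00246) and IFIT3 (1.27 ± 0.352, adjusted p = 0.0385) fell in SNU449, with values of 0.27 and 0.38 in SNU449-Axl- that did not pass the test. In SNU449-Axl- control TRIM22 was already near the floor of the scale, at 33, 25 and 27 with a solved mean of 3.12. A further fall could hardly show there, so for TRIM22 a fall in SNU449 alone gives a positive interaction. IFI44 (1.58 ± 0.383, adjusted p = 0.0183) and BST2 (1.28 ± 0.35, adjusted p = 0.0354) rose in SNU449-Axl-, with values of -0.21 and 0.16 in SNU449 that did not pass. For IFITM2 the difference was -2.11 ± 0.439 (adjusted p = 0.00753).

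Of the 39 members, 19 were below 0 upon Rego in SNU449 and above 0 in SNU449-Axl-. The median interaction was 0.51, with 32 members above and 7 below 0, beside 0.011 over all genes. Relative to the spike-in RNAs, 63.4% of the called genes had a positive interaction instead of 49.7%, and 9 members were positive and 1 negative. Without the 4 libraries numbered 2, GBP2, TRIM22 and UBE2L6 remained called, beside 0.718% of all genes, with a median of 0.58 over the members. The same 3 genes were called without number 1, beside 1.45% of all genes (median 0.40), and were among 10 called members without number 3, beside 4.77% (median 0.51). IFI16, IFITM2, GBP2, TRIM22 and UBE2L6 passed with any 1 library left out, whereas IFI44, BST2 and IFIT3 were lost at least once, with highest adjusted p-values of 0.086, 0.126 and 0.13. The lowest count, 5 members, was reached without Rego-resistant SNU449 replicate 1, without SNU449-Axl- control replicate 2 and without Rego-resistant SNU449-Axl- replicate 2.

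Loss of Axl was compared first in cells that had not seen the drug. In SNU449-Axl- control cells IFIT3, IFI16, IFI44, IRF1, SAMD9L, GBP2, TRIM22 and UBE2L6 were lower than in SNU449 control cells and IFIH1 and IFITM2 higher. These were 10 of 39 members, or 25.6%, beside 7.45% of all genes, with 3.43% of all genes lower and 4.03% higher. Of the 30 members with a mean normalized count of at least 10, 9 were called, beside 8.81% of all genes at that level. UBE2L6 fell by 1.38 ± 0.225 on the log2 scale (adjusted p = 0.000916), GBP2 by 1.38 ± 0.256 (adjusted p = 0.00248) and IFIT3 by 1.21 ± 0.249 (adjusted p = 0.0052). IFI16 fell by 1.16 ± 0.273 (adjusted p = 0.0131), IFI44 by 1.14 ± 0.271 (adjusted p = 0.0136) and TRIM22 by 1.13 ± 0.192 (adjusted p = 0.00127). IRF1 and SAMD9L fell by 1.04 and 0.64. IFITM2 rose by 1.53 ± 0.311 (adjusted p = 0.00494) and IFIH1 by 1.01 ± 0.202 (adjusted p = 0.00446).

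The median of the members was -0.29, with 11 above and 28 below 0, beside 0.003 over all genes. It was -0.22, -0.34 and -0.33 within replicate numbers 1, 2 and 3, and all 10 called members had the same sign within every number. Libraries did not overlap for 11 members that were lower and 3 that were higher, beside 13.4% and 14.5% of all genes. Relative to the spike-in RNAs the median of all genes shifted by 0.203, 84.5% of the called genes were higher instead of 54.0%, and 2 members were called higher and 7 lower, without SAMD9L (adjusted p = 0.182). Without the 4 libraries numbered 2, IFIT3, IFITM2, GBP2, TRIM22 and UBE2L6 remained called, beside 1.59% of all genes, with a median of -0.26. Without number 1, TRIM22 and UBE2L6 were called, beside 2.40% of all genes (median -0.22), and without number 3, 9 members, both of these among them, beside 6.15% (median -0.34). Leaving out 1 library gave 6, 10 and 12 called members without SNU449 control replicate 1, 2 and 3, and 7, 5 and 9 without SNU449-Axl- control replicate 1, 2 and 3. IFIH1, IFITM2, GBP2, TRIM22 and UBE2L6 passed under each of these. The other 5 calls were lost at least once, with highest adjusted p-values between 0.0502 (IFIT3) and 0.134 (IFI44). Over all genes, 708, 740 and 1033 were called without SNU449 control replicate 1, 2 and 3, instead of 1163. Without SNU449-Axl- control replicate 1 and 2 these were 860 and 540.

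In Rego-resistant cells, 3 of 39 members passed the test of Axl loss, or 7.69%, beside 4.37% of all genes, with 2.44% of all genes higher and 1.93% lower. Of the 30 members with a mean normalized count of at least 10, 2 were called, beside 5.20% of all genes at that level. GBP2 was higher in Rego-resistant SNU449-Axl- cells by 1.65 ± 0.256 on the log2 scale (adjusted p = 0.000816) and BST2 by 1.28 ± 0.247 (adjusted p = 0.00554), while MX1 fell by 0.86 ± 0.221 (adjusted p = 0.0318). Without the replicate block 8 members were called, 7 higher and 1 lower, beside 9.63% of all genes. The corresponding counts were 10 for Rego in SNU449, 12 for Rego in SNU449-Axl-, 11 for Axl loss in control cells and 12 for the interaction, beside 13.9%, 9.95%, 14.0% and 11.7% of all genes. The median was 0.28, with 30 above and 9 below 0, beside 0.014 over all genes. It was 0.29, 0.28 and 0.29 within replicate numbers 1, 2 and 3. Libraries did not overlap for 13 members that were higher and 2 that were lower, beside 14.8% and 13.2% of all genes.

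This count depended on the scaling. Relative to the spike-in RNAs the median of all genes shifted by 0.292, 96.2% of the called genes were higher instead of 55.9%, and 16 members were called, all higher, while MX1 was not (adjusted p = 0.129). Without the 4 libraries numbered 2, GBP2 was called, beside 0.667% of all genes, 10 of 39 members had an unadjusted p under 0.05, and the median was 0.28. Without number 1, MX1 was called and GBP2 was not, beside 0.923% of all genes (median 0.27), and without number 3, GBP2, BST2, IFI16 and IFI44L were called, beside 3.0% (median 0.31). Leaving out 1 library gave 3, 3 and 2 called members without Rego-resistant SNU449 replicate 1, 2 and 3, and 2, 1 and 4 without Rego-resistant SNU449-Axl- replicate 1, 2 and 3. GBP2 passed under each of these, and the highest adjusted p was 0.0685 for BST2, without Rego-resistant SNU449-Axl- replicate 2, and 0.2 for MX1, without Rego-resistant SNU449 replicate 2. Over all genes, 104 to 468 were called with 1 library or the libraries of 1 number left out, instead of 682.

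**Figure D4:**
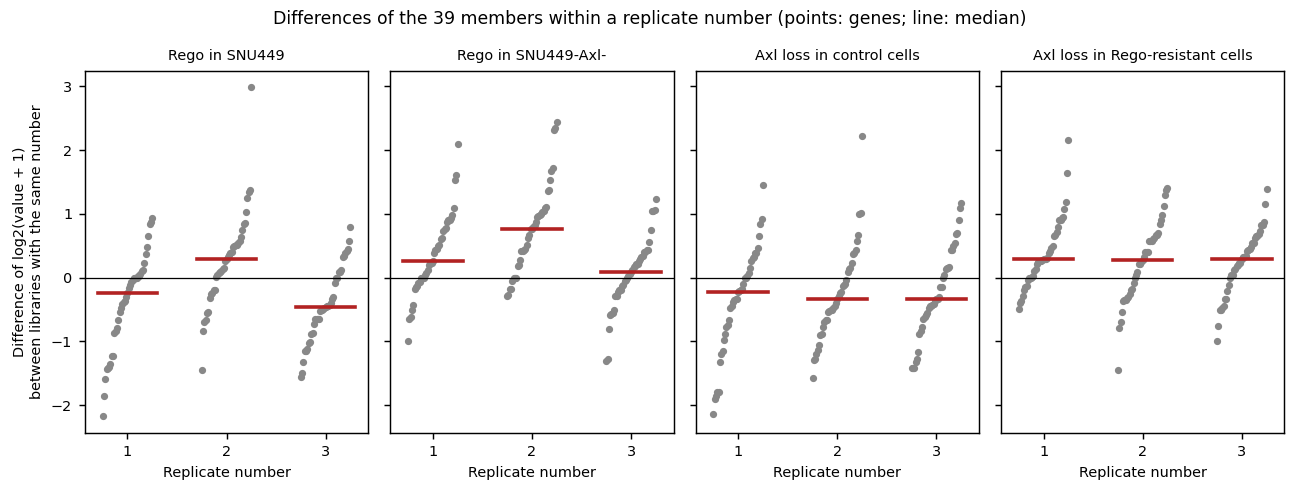
Differences of log2(value + 1) of the 39 genes between libraries with the same replicate number, for the 4 comparisons; points are genes, sorted within a number, and red lines medians. For Rego in SNU449 the median was 0.30 within number 2 and -0.24 and -0.46 within numbers 1 and 3, whereas for loss of Axl in Rego-resistant cells the 3 medians were 0.28 to 0.29.

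The 24 members that passed in no comparison had log2 fold changes between -0.86 and 0.72, and their lowest adjusted p was 0.0589. These include ISG15 itself, with library values of 116 to 165 in SNU449 control, 114 to 149 in Rego-resistant SNU449, 82 to 126 in SNU449-Axl- control and 83 to 141 in Rego-resistant SNU449-Axl-. The 4 groups of ISG15 overlapped. All 4 OAS genes, 3 of 4 IFIT genes, PARP9, PARP14, DTX3L, IRF7, IRF9 and IFITM3 also belong to this set. OAS1 was at 57 to 88 in SNU449 control, 65 to 148 in Rego-resistant SNU449, 75 to 109 in SNU449-Axl- control and 129 to 149 in Rego-resistant SNU449-Axl-. IFIT1, IFIT2 and IFIT5 lay between -0.61 and -0.53 upon loss of Axl in control cells. SAMD9 (-0.86 ± 0.268, adjusted p = 0.0589) came closest to the threshold in the same comparison, followed by EPSTI1 upon Rego in SNU449-Axl- (0.72 ± 0.211, adjusted p = 0.0597). Differences of similar or smaller size were called for other members with less spread between libraries. SAMD9L was 1 of these, but its library values outside SNU449 control were 22 to 26, near the floor of the scale. At its mean normalized count of 2.92 the scale compresses spread as well as differences.

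Of the 39 genes, 19 lie in 8 clusters with another member within 100 kb. Neighbours did not share their calls throughout. Both members of the pairs IFI44L and IFI44 (chr1:78619902-78664078) and GBP1 and GBP2 (chr1:89051882-89150456) were called in at least 1 comparison. In the cluster of IFIT2, IFIT3, IFIT1 and IFIT5 (chr10:89283694-89421605) IFIT3 was called and the other 3 were not. One member was called in IFITM2 and IFITM3, in HERC6 and HERC5, and in SAMD9 and SAMD9L. None of the members was called in OAS1, OAS3 and OAS2 (chr12:112905856-113011723) or in PARP9 and DTX3L (chr3:122527924-122575203). GBP1 and GBP2 differed upon Rego in SNU449-Axl-, where GBP2 rose by 1.90 and GBP1 had a log2 fold change of -0.20 that did not pass the test. The difference between neighbours was not tested.

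Among 34 genes of the pathway upstream of these targets (ligands, receptors, kinases, transcription factors, sensors and feedback inhibitors), 27 were tested and none of the 7 interferon genes searched (IFNB1, IFNE, IFNK, IFNL1, IFNL2, IFNL3 and IFNG) is listed. Upon Rego in SNU449, 4 were called, or 14.8% of the 27, beside 7.81% of all genes. STAT3, the mediator of interleukin-6 signals, rose by 1.54 ± 0.192 (adjusted p = 4.87e-05) and IRF3, which induces interferon beta, by 0.76 (adjusted p = 0.0313). SOCS1, a feedback inhibitor of JAK kinases, fell by 1.09 (adjusted p = 0.00311) and TLR3, an endosomal RNA sensor, by 0.77 (adjusted p = 0.0377). In SNU449-Axl- cells Rego-resistant libraries had higher STAT3 (0.70) and TLR3 (0.99) and lower IRF3 (-1.04). Loss of Axl in control cells gave higher STAT3 (0.67) and IRF3 (0.85) and lower TLR3 (-1.09) and SOCS1 (-0.92). In Rego-resistant cells JAK1 (0.68) was higher upon loss of Axl and TYK2 (-0.79) and IRF3 (-0.95) lower. In the last 3 comparisons 11.1%, 14.8% and 11.1% of the 27 were thus called, beside 4.35%, 7.45% and 4.37% of all genes. The interaction was -1.80 ± 0.296 for IRF3 (adjusted p = 0.00124), 1.76 ± 0.31 for TLR3 (adjusted p = 0.00229) and -1.27 ± 0.27 for TYK2 (adjusted p = 0.00842). These were 11.1% of the 27, beside 5.87% of all genes. The receptors IFNAR1 and IFNAR2 passed in no comparison. Upon Rego in SNU449-Axl- both were nevertheless higher without overlap of the libraries. IFNAR1 was at 252 to 297 against 183 to 222 in control, and IFNAR2 at 243 to 307 against 161 to 214. In that comparison 12 of the 27 were higher without overlap and 6 lower, beside 15.0% and 14.1% of all genes. Of the 14 calls between groups, those of STAT3 and SOCS1 in SNU449 and of TLR3 upon loss of Axl in control cells passed with any 1 library left out, and so did the 3 interactions.

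Antigen presentation by MHC class I is also induced by interferons, and 16 of 17 listed genes were tested. Upon Rego in SNU449, B2M (-0.77), the immunoproteasome subunits PSMB8 (-1.26) and PSMB9 (-1.18) and the peptide-trimming enzyme ERAP1 (-0.90) fell, and none rose. These were 25% of the 16, beside 7.81% of all genes called and 3.50% that fell. Loss of Axl in control cells gave 7 falls and no rise, namely HLA-B (-1.39 ± 0.225, adjusted p = 0.000861), HLA-C, B2M, PSMB8, PSMB9, PSME1 and ERAP1. These were 43.8% of the 16, beside 7.45% of all genes called and 3.43% that fell. In Rego-resistant SNU449-Axl- cells no gene of this list was called against either comparator by limma, with 1 called in each without the replicate block. Over all genes, 4.35% and 4.37% were called against SNU449-Axl- control and Rego-resistant SNU449, and 9.95% and 9.63% without the block. Upon Rego in SNU449-Axl-, 15 of 16 were nevertheless above 0, with a median of 0.41 beside 0.007 over all genes, and 10 were higher without overlap of the libraries, beside 15.0% of all genes. The interaction was positive for B2M, PSMB8, PSMB9 and ERAP1, between 1.26 and 1.60. These were 25% of the 16, beside 5.87% of all genes. PSMB8, whose values may include reads of its overlapping antisense RNA if strand was not used in counting, was at 410, 388 and 556 in SNU449 control, 163, 234 and 167 in Rego-resistant SNU449, 234, 167 and 130 in SNU449-Axl- control and 185, 191 and 241 in Rego-resistant SNU449-Axl-. Its SNU449 control libraries were above the other 9, as those of UBE2L6, IRF1 and TRIM22 were.

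Of the cell type markers, only FN1, KRT8 and AFP were called in any comparison. Upon loss of Axl in control cells 1 of 6 mesenchymal-like, 1 of 2 epithelial and 1 of 2 hepatocyte markers tested were called. Over all genes 7.45% were called there. FN1, the fibronectin gene on the mesenchymal-like list, was called in all 4 comparisons and the interaction, and the other 5 markers of that list were called in none of them. It was at 2491, 1437 and 2923 in SNU449 control, 336, 453 and 650 in Rego-resistant SNU449, 559, 377 and 463 in SNU449-Axl- control and 2543, 4850 and 1351 in Rego-resistant SNU449-Axl-. SNU449 control and Rego-resistant SNU449-Axl- cells were its high groups, as they were for GBP2. Of 6 epithelial markers KRT8 and KRT18 are listed. KRT8, an epithelial keratin, was at 140 to 216 in SNU449 control, 133 to 208 in Rego-resistant SNU449, 276 to 320 in SNU449-Axl- control and 439 to 542 in Rego-resistant SNU449-Axl-. It rose upon loss of Axl by 0.79 ± 0.218 in control cells (adjusted p = 0.0332) and by 1.58 ± 0.218 in Rego-resistant cells (adjusted p = 0.000248), and KRT18 was called in no comparison. AFP, a fetal liver protein, rose by 0.67 ± 0.181 upon loss of Axl in control cells (adjusted p = 0.0297), with library values of 21 to 24 in SNU449 control and 33 to 39 in SNU449-Axl- control, and no leukocyte marker was called. The part of these markers in the values of the interferon-stimulated genes was not tested.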

How the data were processed

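The 3′-end libraries (QuantSeq) were trimmed by the authors with cutadapt 4.0 and aligned to GRCh38 with STAR 2.5.3a, and reads were counted per gene. Of the 8 deposited tables, 2 hold all 12 libraries and 6 hold pairs of groups. Library values are scores that the authors made as 2 raised to the variance-stabilised level after removal of the preparation date, rounded, not counts. The signal deposited per gene is the mean normalized count of the authors over a table. Columns with the DESeq2 fold changes and p-values of the authors were not used. These means added up to between 4160000 and 4910000 in the 8 tables, and the read depth of single libraries is unknown.

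The 4 comparisons and the interaction were fitted in R 4.3.3 with limma 3.58.1 (lmFit, eBayes with trend) on log2(value + 1) over 15601 genes of 1 table, with 32 spike-in RNAs left out and the replicate number as a block. P-values were adjusted over these genes (Benjamini-Hochberg), with 0.05 as the threshold of a call. The block was used because means over the libraries of 1 number were nearly equal, as a removed effect along that number would leave them. They deviated by a median of 0.00126, beside 0.122 for a library from its group. Deviations of libraries with the same number correlated between -0.485 and -0.0906 over 18 pairs. Preparation dates of libraries were not given in the sources used here. The fit was tested on simulated data.

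Named with all values were members called in at least 2 of 4 comparisons, at most 12, and per comparison the 3 largest rises and falls. Members and lists were chosen with earlier results of these data known. Omission of all libraries of 1 number was chosen after seeing the data. Motifs were searched with Python 3.11.15.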

Additional observations from a re-analysis of the deposited data

Results flagged for a closer look

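The change from control to Rego-resistant cells was not the same in SNU449-Axl- and SNU449 cells for 8 of 39 tested interferon-stimulated genes. These were 20.5%, beside 5.87% of all genes. An effect of Rego cannot be told apart here from a difference between populations. The test was the interaction term of the limma fit (Benjamini-Hochberg adjusted p under 0.05, 3 libraries per group). The difference was 3.03 on the log2 scale for GBP2, 2.02 for IFI16, 1.96 for UBE2L6, 1.58 for IFI44, 1.52 for TRIM22, 1.28 for BST2 and 1.27 for IFIT3. For IFITM2 it was -2.11. All 8 kept their direction with any 1 library left out, but IFI44, BST2 and IFIT3 lost the call at least once. Without the libraries numbered 1, or those numbered 2, only GBP2, TRIM22 and UBE2L6 stayed called. TRIM22 was already near the floor of the scale in SNU449-Axl- control.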

How the results depend on the processing

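Values in the order of Rego in SNU449, Rego in SNU449-Axl-, Axl loss in control cells, Axl loss in Rego-resistant cells and the interaction are given throughout. Without the replicate block 2175, 1552, 2182, 1503 and 1826 genes were called instead of 1219, 678, 1163, 682 and 916, and for Axl loss in Rego-resistant cells 8 members instead of 3. The block changed the call of none of the 38 member calls made with it. In the separate tables of pairs, 603 genes were called for Rego in SNU449, 603 for Axl loss in control cells and 1160 for Axl loss in Rego-resistant cells, with 5 members in the first and 7 in the last. With spike-in centring, Axl loss in Rego-resistant cells gave 1799 genes and 16 members. With 1 library, or the 4 libraries of 1 replicate number, left out, genes called ranged from 345 to 968, 91 to 579, 248 to 1033, 104 to 468 and 112 to 922, and members from 2 to 8, 1 to 10, 2 to 12, 1 to 4 and 3 to 10. The cause of these differences was not tested. Fits with libraries left out also have fewer degrees of freedom.

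Of the 38 member calls, 38 were also made from the other table over all libraries and with a pseudocount of 0, 37 after upper-quartile rescaling, 34 after spike-in centring, 22 of 29 that could be tested in the tables of pairs, and 10, 14 and 27 without the libraries numbered 1, 2 and 3. With each single library left out, 15 of 38 passed throughout. No member call changed direction under any of these alternatives. Depth per library is unknown, and 9 of the 39 members had a mean normalized count under 10, where the scale is flattest and a change is least detectable.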
